A study of Mus musculus with 24 samples.

Results

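The comparison of neuregulin 1 (NRG1) with vehicle in Lgr5med cells, the sorted immediate progenitors of the small-intestinal crypt, is described here across all expressed genes. Its members are the 6 Lgr5med libraries, out of 24 in the series, and they were taken by their column names in the deposited count table. The 3 NRG1 libraries came from 3 male Lgr5-EGFP mice on a C57BL/6 background that were given 7.5 µg NRG1 into the peritoneal cavity every 12 h over 5 days. The 3 PBS libraries came from 3 male Lgr5-EGFP littermates given the PBS vehicle on the same schedule. Small intestine was taken on day 6. The mice were 15 weeks of age for replicates 1 and 2 of either treatment, and 11 weeks for replicate 3. All mice carried the Lgr5-EGFP reporter, so no library came from animals without it. Crypt cells were sorted as live, CD31-negative and CD45-negative, and the Lgr5med gate was set by intermediate EGFP with low CD24. Each of the 6 mice also gave an Lgr5high (stem cell), an Lgr5low (later progenitor) and an Lgr5neg (differentiated) library.

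NRG1 is an EGF-family ligand that binds the receptors ErbB3 and ErbB4. ErbB3 has little kinase activity of its own, so it signals as a dimer with partners such as ErbB2 or EGFR, and it feeds strongly into PI3K and AKT, which keep FOXO transcription factors out of the nucleus, and into RAS and ERK. The progenitors next to the crypt base divide rapidly and, as they move up the crypt, commit to the absorptive (enterocyte) or the secretory (goblet, Paneth, enteroendocrine, tuft) lineages.

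The Lgr5med libraries held 16980822 to 21993032 counts. Between 37.6% and 44.6% of them were ribosomal RNA of the mitochondrion (mt-Rnr1 with mt-Rnr2), so the remaining genes shared 10163741 to 12549810 counts. Levels below are in CPM, a gene's count relative to all counts of its library after TMM scaling over the 6 libraries, unless another scaling is named. By counting error alone, a gene with no count could still lie at up to 3 counts, or 0.136 to 0.177 CPM. Epithelial identity was checked on markers of the sort. Epcam, Cdh1, Krt8, Krt18, Krt19, Cd24a and Lgr5 passed the filter on low counts, while Ptprc (CD45) and Pecam1 (CD31) did not. Of the marker lists of other tissues, 3 of 28 immune, 4 of 15 endothelial, 3 of 18 mesenchymal and 2 of 15 erythroid or neural genes passed that filter. Their summed levels were 19.4 to 32.1 CPM in NRG1 against 28.8 to 38.1 CPM in PBS libraries for immune genes, 7.95 to 9.62 CPM in NRG1 against 5.85 to 9.76 CPM in PBS libraries for endothelial genes, 4.40 to 11.5 CPM in NRG1 against 5.51 to 12.7 CPM in PBS libraries for mesenchymal genes, and 1.01 to 3.25 CPM in NRG1 against 0.827 to 3.07 CPM in PBS libraries for erythroid and neural genes. Cd3d, Cd8b1, Cd2, Cdh5, Kdr, Tie1, Emcn, Col3a1, Pdgfra and Hba-a1 had a count of 0 in all 6 libraries.

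PBS replicate 1 stood apart from the other PBS libraries in its cell type markers. Its Lgr5 level was 62.9 CPM, against 19.1 and 23.1 CPM in PBS replicates 2 and 3, and its goblet cell marker sum was 9431 CPM, against 21640 and 24810 CPM. NRG1 replicate 1 likewise had the highest Lgr5 level (94.6 CPM) and the lowest goblet marker sum (8163 CPM) of the NRG1 libraries. In bulk samples such as these, fewer cells of a type and less RNA per cell cannot be told apart. Deviations from the group means correlated at 0.355 between replicates 1, 0.12 between replicates 2 and 0.288 between replicates 3 of both treatments. Between other numbers they reached 0.118 at most, so replicates 2 hardly stood out. The labels state no blocking, and a block by replicate number rests on these same values. Counts that move by more than 1.5 times when the replicate number is a term in the fit are given in both forms.

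Across the transcriptome, 1279 of the 13394 genes tested differed between NRG1 and PBS libraries, or 9.55% of them (edgeR quasi-likelihood test, adjusted p under 0.05). Of these, 504 rose (3.76% of genes tested) and 775 fell (5.79%). The median absolute log2 change of the called genes was 0.67, and the median over all genes was 0.0088. The CPM of the groups did not overlap for 4102 genes, or 30.6% of those tested. NRG1 libraries were all higher for 15% of genes tested and all lower for 15.7%. Setting aside genes whose mean log2 CPM was under 2 or whose groups overlapped, the falls were led by Car4, Trmt61a, Ung, Ghrl and E2f1, and the rises by Trp53inp1, H3f3a, Slc16a12, Arl14 and mt-Co1. Lack of overlap was a condition for a place among these largest changes, so where stated below it is no added evidence for them. The groups did not overlap for 1273 of the 1279 called genes, so for other called genes it adds little to the call. With the replicate number as a block the counts were 997 risen and 1336 fallen genes. They were 188 risen and 384 fallen without NRG1 replicate 2, 121 and 323 without PBS replicate 2, and 119 and 303 without PBS replicate 3. In the 15-week-old mice alone, 2 against 2, 127 genes rose and 298 fell. A model of all 24 libraries, which shares 1 estimate of the spread among the 4 populations, gave 298 rises and 590 falls and called 835 of the 1279 genes. The 11-week-old mice, 1 against 1, allow no test. All 1279 genes had the same direction in both ages, which the lack of overlap between the groups already fixed for 1273 of them. The gene lists below were chosen with earlier results of these data known, so their shares are descriptions. Where a list's count stands alone, the 3.76% risen and 5.79% fallen over all genes are the shares to set beside it.

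**Figure D1:**
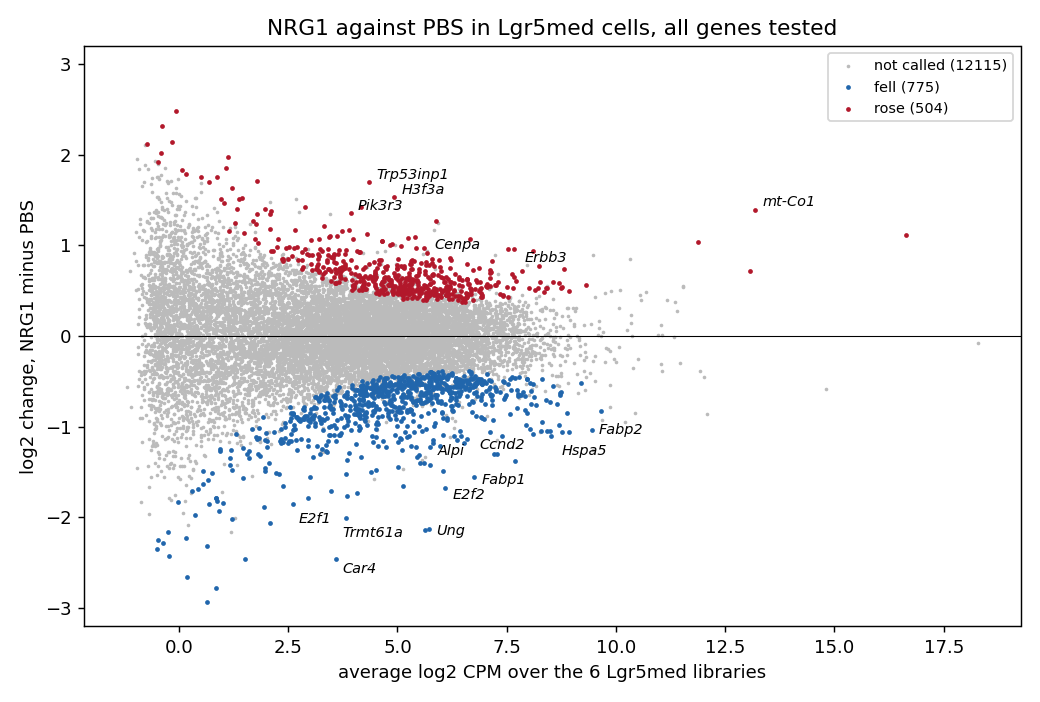
Log2 change (NRG1 minus PBS, y axis) against average log2 CPM over the 6 Lgr5med libraries (x axis) for the 13394 genes tested, each point a gene. Red points are the 504 genes that rose, blue points the 775 that fell and grey points those not called, and E2f1, Ung, Trmt61a and Car4 lie lowest among the labelled genes.

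**Figure D2:**
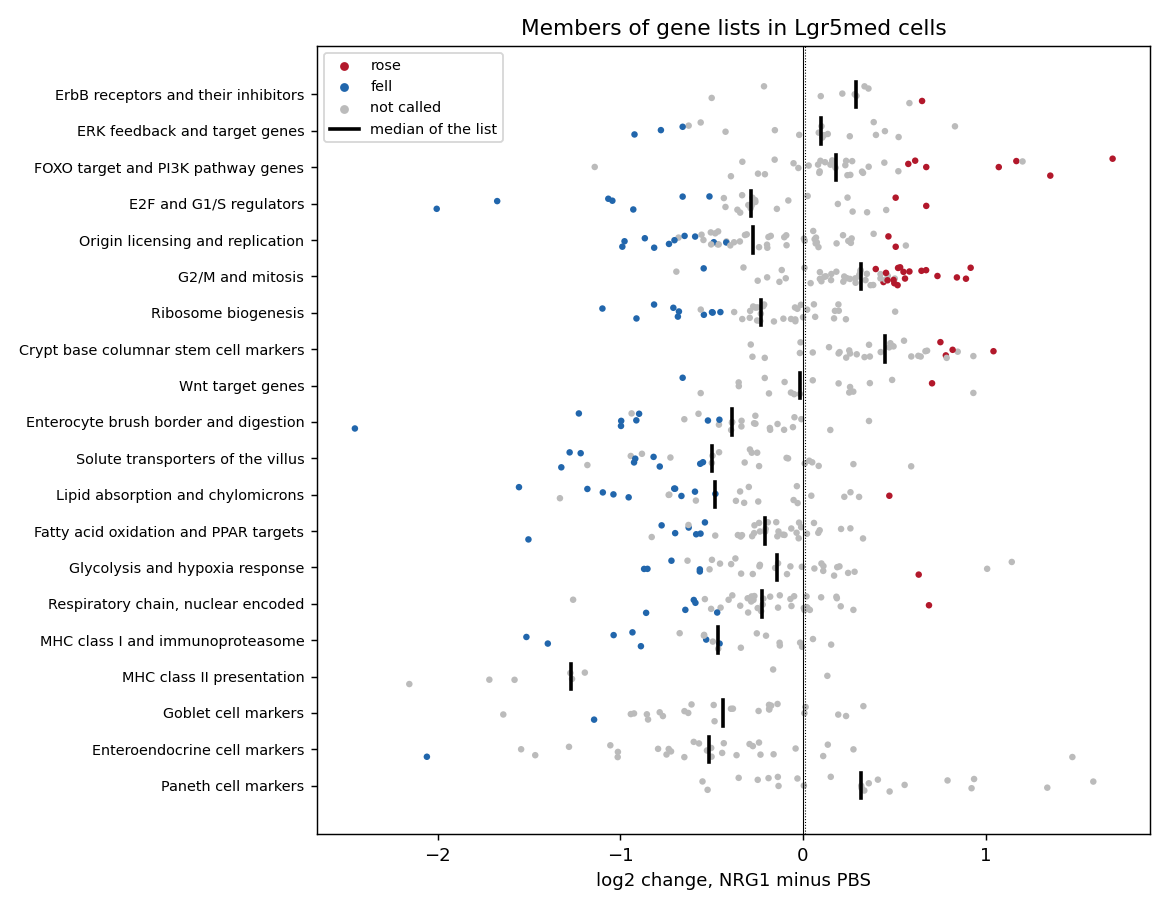
Log2 change (NRG1 minus PBS, x axis) of the tested members of the gene lists named on the y axis, each point a gene (red rose, blue fell, grey not called) and each black bar the list's median. Most of the G2/M list lies right of 0, with a median of 0.32, while the replication list (-0.27) and the enterocyte lists lie left, and the dotted line marks the median over all genes.

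The receptor for NRG1 was higher after treatment. Erbb3 (chromosome 10, 128567523 to 128589652) had 248, 256 and 242 CPM in the NRG1 libraries, against 171, 146 and 157 CPM in the PBS libraries. Every NRG1 library lay above every PBS library, and Erbb3 rose by a log2 change of 0.65 (SE 0.118, adjusted p = 0.00456), to 249 ± 6.86 CPM in NRG1 against 158 ± 12.6 CPM in PBS libraries (SD, n = 3 each). Its partners were not called. Erbb2 averaged 80.7 ± 6.79 CPM in NRG1 and 93.6 ± 11.6 CPM in PBS libraries (log2 change -0.21, adjusted p = 0.31), and Egfr 82.2 ± 10.4 CPM in NRG1 and 67.5 ± 10.0 CPM in PBS libraries (0.28, adjusted p = 0.21). Erbb4 had a count of 0 in all 6 libraries. Of 11 listed ErbB receptors and inhibitors 10 were tested, Erbb3 alone was called, and the median log2 change was 0.29. With the replicate block 2 rose and 1 fell, and without PBS replicate 1 there were 2 rises. None of the 6 tested ErbB ligands was called in either direction, and Nrg2, Nrg3 and Epgn had a count of 0.

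Genes that ERK signalling induces did not move together. Of 19 tested, 3 fell (15.8%, against 5.79% over all genes), none rose and the median log2 change was 0.10. Without NRG1 replicate 1 or PBS replicate 1, 1 rose, and in the model of all 24 libraries 1 fell. Spry2, which encodes a Sprouty inhibitor of receptor tyrosine kinase signalling, had 8.45, 6.97 and 9.85 CPM in NRG1 against 17.1, 14.2 and 16.5 CPM in PBS libraries. The groups did not overlap, and Spry2 fell by 0.92 on the log2 scale (SE 0.184, adjusted p = 0.00772). Ccnd1, encoding cyclin D1, averaged 75.0 ± 11.4 CPM in NRG1 and 118 ± 10.3 CPM in PBS libraries and fell by 0.66 (SE 0.132, adjusted p = 0.008), although exons of the gene LTO1 overlap it on the opposite strand. Epha2, an ephrin receptor, fell by 0.78 (adjusted p = 0.0379) but was not called once any 1 of the 6 libraries was left out (adjusted p = 0.0554 to 0.133). In the model of all 24 libraries neither Epha2 (0.0906) nor Ccnd1 (0.0865) was called.

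FOXO target and PI3K pathway genes contributed rises and no fall. Of 40 listed, 37 were tested, 7 rose (18.9%, against 3.76% over all genes), 29 had a log2 change above 0 and the median was 0.18. Trp53inp1 (chromosome 4, 11156431 to 11174379), a stress-induced regulator of autophagy and of p53 activity, had 34.8, 31.7 and 26.6 CPM in NRG1 libraries against 8.87, 8.62 and 11.2 CPM in PBS libraries. The lowest NRG1 library lay above the highest PBS library, which was a condition for its place among the largest rises. The rise was 3.24-fold (log2 change 1.70, SE 0.167, adjusted p = 7.05e-05). Pik3r3, a regulatory subunit of PI3K, had 17.2, 28.5 and 19.2 CPM in NRG1 against 7.22, 9.02 and 9.19 CPM in PBS libraries, a log2 change of 1.35 (SE 0.204, adjusted p = 0.00163). Sesn3, a sestrin that restrains mTORC1, had 23.3, 17.8 and 20.3 CPM in NRG1 and 11.4, 7.53 and 8.40 CPM in PBS libraries (log2 change 1.17, SE 0.189, adjusted p = 0.00247). For both genes all 3 NRG1 libraries were higher. Ccng2, the growth-inhibitory cyclin G2, rose by 1.07 (adjusted p = 0.00336), with 21.3 ± 2.55 CPM in NRG1 and 10.1 ± 2.03 CPM in PBS libraries. Cdkn1b, which encodes the CDK inhibitor p27, rose by 0.68 (adjusted p = 0.00476), with 68.4 ± 7.37 CPM in NRG1 and 42.8 ± 2.53 CPM in PBS libraries. Rictor, the scaffold of mTORC2, rose by 0.61 (adjusted p = 0.00802), and Txnip, an arrestin-like protein that limits glucose uptake, by 0.58 (adjusted p = 0.0302). Without single libraries 5 to 7 members rose and none fell, and with the replicate block 10 rose and 2 fell.

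**Figure D3:**
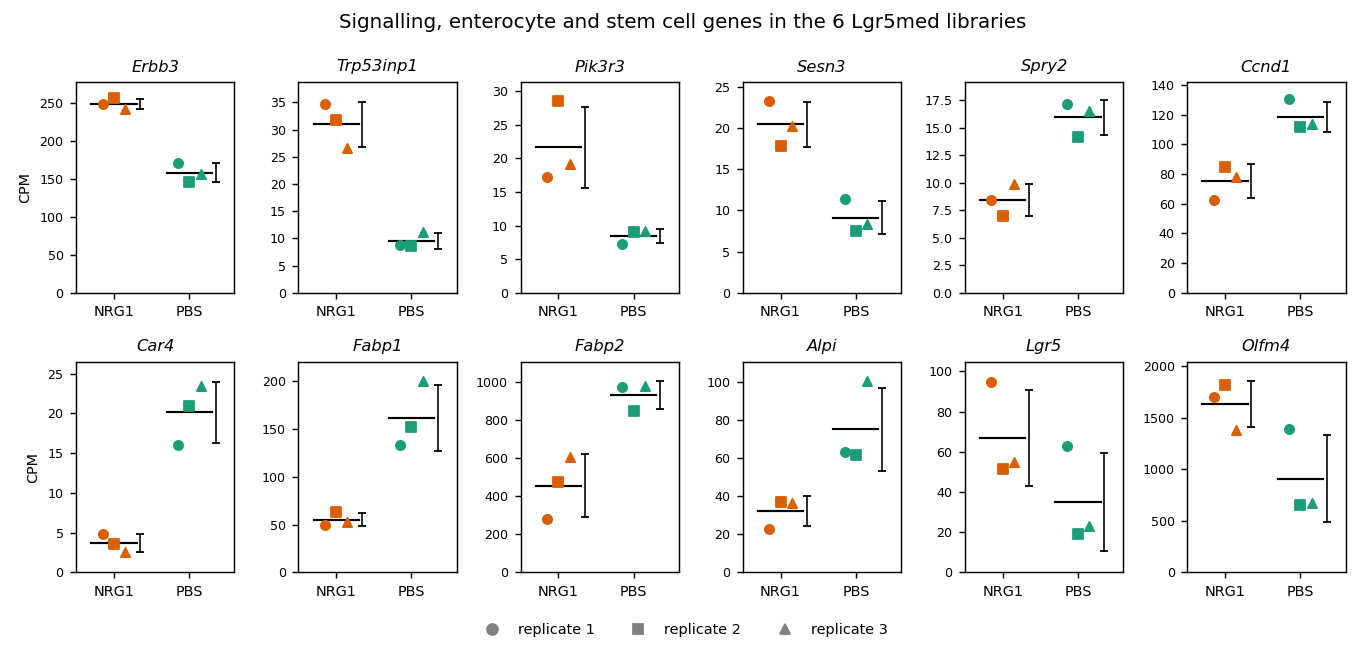
CPM (y axis, from 0) of 12 genes in the 3 NRG1 and 3 PBS libraries (x axis), with marker shapes for replicates 1 to 3, horizontal bars for the means and error bars for the SD. Erbb3, Trp53inp1, Pik3r3 and Sesn3 are higher in every NRG1 library, Car4, Fabp1, Fabp2 and Alpi are lower, and the Lgr5 and Olfm4 values of the groups overlap through PBS replicate 1.

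Among regulators of the G1/S transition, falls outnumbered rises. Of 28 such genes, all tested, 7 fell (25.0%, against 5.79% over all genes), 2 rose and the median log2 change was -0.28. E2f1 (chromosome 2, 154559407 to 154569892), an activating transcription factor of S-phase genes, had 5.69, 5.33 and 5.69 CPM in NRG1 libraries against 29.1, 16.5 and 21.6 CPM in PBS libraries. The NRG1 libraries lay close together and all were far below PBS, a 4.01-fold fall (log2 change -2.01, SE 0.21, adjusted p = 9.68e-05). E2f2 (chromosome 4, 136172394 to 136196057), of the same activator class, had 25.5, 36.2 and 35.5 CPM in NRG1 against 93.4, 116 and 101 CPM in PBS libraries, a log2 change of -1.67 (SE 0.149, adjusted p = 5.64e-05). Of the cyclins that act at this step, Ccnd1, Ccnd2 and Ccne1 fell, while Ccnd3 (8.06, 9.89 and 14.0 CPM in NRG1 and 12.4, 12.6 and 13.9 CPM in PBS libraries, adjusted p = 0.414) and Ccne2 (5.19 ± 0.985 CPM in NRG1 and 5.72 ± 0.562 CPM in PBS libraries, adjusted p = 0.757) were not called. Ccnd2, encoding cyclin D2, had 161, 205 and 245 CPM in NRG1 and 394, 394 and 472 CPM in PBS libraries, with no overlap (log2 change -1.04, SE 0.157, adjusted p = 0.00163; 2 non-coding genes overlap its exons on the opposite strand). Ccne1, encoding cyclin E1, had 2.37, 2.64 and 2.50 CPM in NRG1 against 4.41, 4.96 and 6.41 CPM in PBS libraries (log2 change -1.07, SE 0.268, adjusted p = 0.0242). Cdkn2d, encoding the CDK4 and CDK6 inhibitor p19, fell by 0.93 (adjusted p = 0.0179, and 0.0742 at most without NRG1 replicate 2, PBS replicate 1 or PBS replicate 2). The repressor gene E2f7 fell by 0.51 (adjusted p = 0.0486), and Rbl2, encoding the pocket protein p130, rose by 0.51 (adjusted p = 0.0193), each with opposite-strand exon overlap. The list held 4 falls without NRG1 replicate 2, without PBS replicate 2 and in the model of all 24 libraries, and 1 rise without NRG1 replicate 2, PBS replicate 2 or PBS replicate 3.

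Ung (chromosome 5, 114130386 to 114139323), the uracil-DNA glycosylase that removes uracil left in DNA, had the third largest fall by size among the genes named. It had 23.8, 19.9 and 15.2 CPM in NRG1 against 101, 84.8 and 72.1 CPM in PBS libraries. The groups were far apart, a 4.38-fold fall (log2 change -2.13, SE 0.174, adjusted p = 5.64e-05). It was the single called gene of 33 tested DNA repair genes (median log2 change -0.063). With the replicate block 1 repair gene rose and 2 fell.

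Origin licensing and replication genes fell more often than they rose. Of 51 listed, 50 were tested, 10 fell and 2 rose, with a median log2 change of -0.27. The falls were 20% of those tested, against 5.79% over all genes. The rises were 4%, close to the 3.76% over all genes. Uhrf1, which directs maintenance methylation to newly copied DNA, had 31.8, 34.0 and 23.7 CPM in NRG1 and 61.8, 55.8 and 60.4 CPM in PBS libraries. Cdc6, the loader of the MCM helicase, had 7.10, 7.61 and 8.82 CPM in NRG1 against 17.5, 13.8 and 15.0 CPM in PBS libraries. Neither gene overlapped between the groups, and their log2 changes were -0.99 (SE 0.143, adjusted p = 0.00125) and -0.98 (SE 0.18, adjusted p = 0.00496). Chaf1a, the large subunit of the replication-coupled histone chaperone CAF-1, fell by 0.87 (adjusted p = 0.00367; Ubxn6 exons overlap on the opposite strand). Smaller falls were called for the checkpoint mediator Clspn (-0.81), the polymerase subunits Pold2 (-0.73) and Pola1 (-0.42), the fork protection gene Timeless (-0.70), the helicase subunits Mcm7 (-0.65) and Mcm6 (-0.49) and the fork protein Wdhd1 (-0.59). Gins4, of the GINS helicase complex (0.47), and Dbf4, the activator of the CDC7 kinase (0.51), rose. Under the replicate block 20 members fell and 3 rose. Falls numbered 5 without NRG1 replicate 2, 6 without PBS replicate 1, 4 without PBS replicate 2, 6 without PBS replicate 3 and 5 in the 15-week-old mice, and rises 1 without NRG1 replicate 3 and 0 without NRG1 replicate 2 or any PBS library. The calls of Clspn (adjusted p = 0.0653 without PBS replicate 2) and Pold2 (0.0528 without NRG1 replicate 2) were among those that ended. Nucleotide synthesis genes gave 3 falls (10.7%, against 5.79% over all genes) and no rise among 28 tested (median -0.11). These were Atic, a late enzyme of purine synthesis (-0.71, adjusted p = 0.00516), Rrm2, the inducible subunit of ribonucleotide reductase (-0.57, adjusted p = 0.0121), and Cad, which starts pyrimidine synthesis (-0.51, adjusted p = 0.0165). The list held 5 falls without NRG1 replicate 1, 0 in the 15-week-old mice and 1 without PBS replicate 2 or PBS replicate 3. Without either of those PBS libraries Rrm2 and Cad lost the call, Cad also without NRG1 replicate 2 (0.0858 at most).

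Promoter windows of E2f2, Uhrf1 and Cdc6 are shown because they are the 3 genes of the G1/S and replication lists with the largest falls whose window holds the E2F motif letters TTTNNCGC. The windows are from RefSeq (GRCm38.p6), cover 250 bases before to 50 after the gene's start and are printed along the gene's strand, with each match in capitals (GCGNNAAA is the same motif on the other strand). They lie at chr4:136172024-136172323 (E2f2), chr17:56303087-56303386 (Uhrf1) and chr11:98907901-98908200 (Cdc6), all on the plus strand. RefSeq starts can differ from those of the annotation used for gene coordinates (GENCODE), and the E2f2 window ends before the GENCODE start of that gene given above.
E2f2: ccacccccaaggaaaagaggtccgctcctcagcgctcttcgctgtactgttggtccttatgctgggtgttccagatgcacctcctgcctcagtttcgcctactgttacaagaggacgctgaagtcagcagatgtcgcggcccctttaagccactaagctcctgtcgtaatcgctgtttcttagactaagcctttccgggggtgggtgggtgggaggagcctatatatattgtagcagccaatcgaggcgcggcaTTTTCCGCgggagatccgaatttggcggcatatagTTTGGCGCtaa
Uhrf1: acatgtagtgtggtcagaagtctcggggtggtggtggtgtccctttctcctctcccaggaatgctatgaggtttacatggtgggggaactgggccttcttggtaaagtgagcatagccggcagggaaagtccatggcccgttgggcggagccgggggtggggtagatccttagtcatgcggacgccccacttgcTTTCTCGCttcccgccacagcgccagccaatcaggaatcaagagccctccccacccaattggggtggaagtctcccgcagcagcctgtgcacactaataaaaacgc
Cdc6: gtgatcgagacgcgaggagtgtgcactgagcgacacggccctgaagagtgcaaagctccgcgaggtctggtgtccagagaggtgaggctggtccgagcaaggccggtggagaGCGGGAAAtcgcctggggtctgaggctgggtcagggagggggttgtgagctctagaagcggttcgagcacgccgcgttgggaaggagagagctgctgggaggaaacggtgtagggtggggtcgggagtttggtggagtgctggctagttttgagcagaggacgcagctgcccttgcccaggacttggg
Of the 17 fallen members of both lists 15 had a window, and 8 of these held the motif (E2f2, E2f7, Mcm6, Mcm7, Cdc6, Pola1, Clspn and Uhrf1). The windows of Ung and E2f1 held no match to these letters. Among all 9829 tested genes with a window 8.52% held the motif. The share was 41.5% of the replication list and 38.1% of the G1/S list whatever their members did, 11.3% of all fallen genes and 7.43% of all risen genes. Matches are a description of the letters in this window.

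Among genes of G2 and mitosis, rises outnumbered falls. All 55 listed genes were tested, 18 rose (32.7%, against 3.76% over all genes), 1 fell, 47 had a log2 change above 0 and the median was 0.32. Cenpa (chromosome 5, 30666777 to 30674830), the centromeric histone H3 variant, had 68.3, 65.1 and 67.0 CPM in NRG1 libraries against 35.8, 39.1 and 31.2 CPM in PBS libraries. The groups were well separated, and the log2 change was 0.92 (SE 0.123, adjusted p = 0.000759). Ect2, the RhoA exchange factor that starts cytokinesis, had 74.3, 66.7 and 96.0 CPM in NRG1 and 47.7, 38.5 and 45.9 CPM in PBS libraries (log2 change 0.84, SE 0.147, adjusted p = 0.00386). Ndc80, of the outer kinetochore, had 39.5, 44.3 and 35.7 CPM in NRG1 against 25.5, 22.3 and 24.01 CPM in PBS libraries (log2 change 0.74, SE 0.135, adjusted p = 0.00476). For both, every NRG1 library was higher than every PBS library. Mad2l1, of the spindle checkpoint, rose by 0.67 (adjusted p = 0.00541), and Ccnb1, encoding cyclin B1, by 0.58 (adjusted p = 0.0155). Cdc20, the activator of the anaphase-promoting complex, rose by 0.52 (adjusted p = 0.0283), and the mitotic kinase gene Aurka by 0.50 (adjusted p = 0.0387). Cks2, a CDK-binding protein, rose by 0.89 (adjusted p = 0.0257) but was not called without NRG1 replicate 1, PBS replicate 2 or PBS replicate 3 (0.113 at most). Spc25, which encodes a partner of NDC80 in the same complex, was the gene that fell (-0.54, adjusted p = 0.0353). Mki67, the proliferation marker, averaged 1180.0 ± 160.1 CPM in NRG1 and 954 ± 41.0 CPM in PBS libraries and was not called (log2 change 0.31, adjusted p = 0.215). Rises numbered 8 without PBS replicate 2, 6 without PBS replicate 3, 6 in the 15-week-old mice and 10 in the model of all 24 libraries, where Cks2 was not called (0.0501). Falls numbered 2 without NRG1 replicate 1 and 0 without any other library. Pairing by the replicate block gave 25 members that rose and 3 that fell. The summed level of enterocyte markers, given below, was also lower in every NRG1 library, while that of stem cell markers overlapped between the groups. The part of either in the cell cycle results was not tested.

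**Figure D4:**
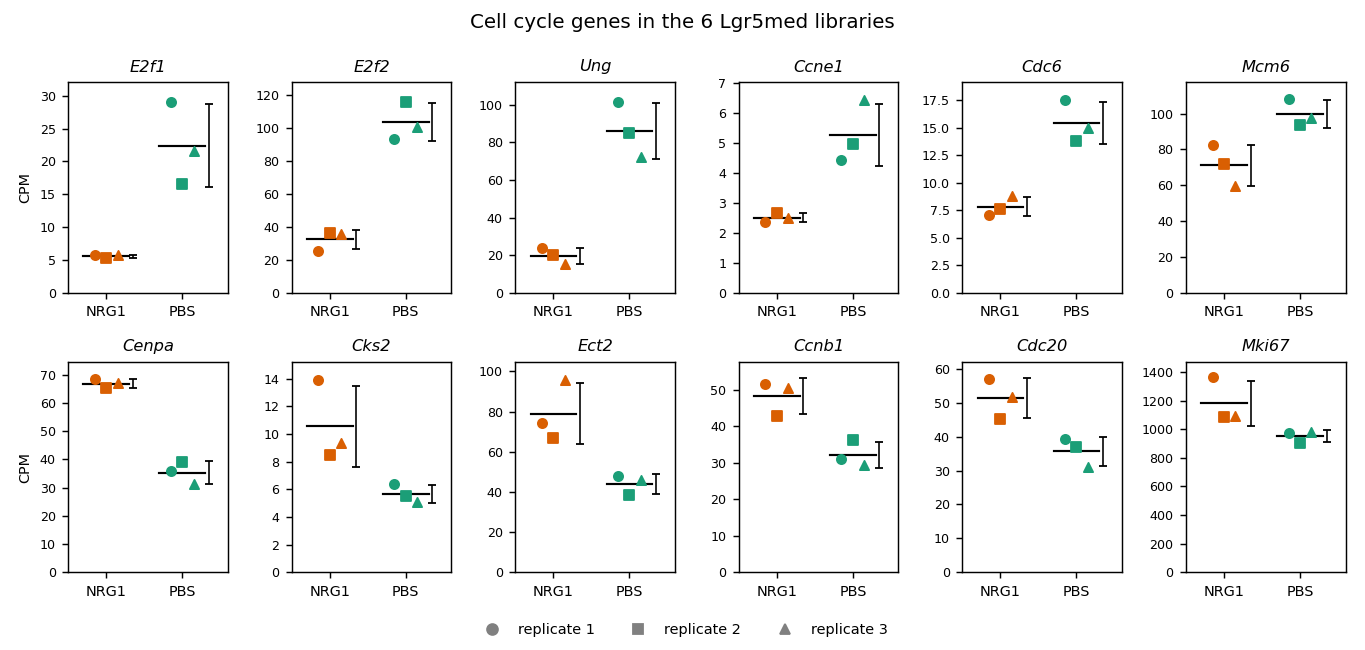
CPM (y axis, from 0) of 12 cell cycle genes in the 3 NRG1 and 3 PBS libraries (x axis), with marker shapes for replicates 1 to 3, horizontal bars for the means and error bars for the SD. The upper row (E2f1, E2f2, Ung, Ccne1, Cdc6, Mcm6) is lower in every NRG1 library, and the lower row (Cenpa, Cks2, Ect2, Ccnb1, Cdc20, Mki67) is higher, with Mki67 not called.

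The windows of Cenpa, Ect2 and Ndc80 are shown as the 3 mitotic genes with the largest rises whose promoter window holds TTTGAA, the letters of the cell cycle genes homology region (CHR), an element known in promoters of mitotic genes. They lie at chr5:30666636-30666935 (Cenpa, plus strand), chr3:27153829-27154128 (Ect2, minus strand) and chr17:71526808-71527107 (Ndc80, minus strand), and the capitals mark TTTGAA or its reverse complement TTCAAA.
Cenpa: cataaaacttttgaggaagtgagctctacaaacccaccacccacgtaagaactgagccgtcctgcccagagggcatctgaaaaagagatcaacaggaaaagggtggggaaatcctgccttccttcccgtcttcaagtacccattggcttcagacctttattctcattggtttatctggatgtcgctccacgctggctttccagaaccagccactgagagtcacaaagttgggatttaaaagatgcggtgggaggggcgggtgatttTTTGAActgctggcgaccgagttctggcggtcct
Ect2: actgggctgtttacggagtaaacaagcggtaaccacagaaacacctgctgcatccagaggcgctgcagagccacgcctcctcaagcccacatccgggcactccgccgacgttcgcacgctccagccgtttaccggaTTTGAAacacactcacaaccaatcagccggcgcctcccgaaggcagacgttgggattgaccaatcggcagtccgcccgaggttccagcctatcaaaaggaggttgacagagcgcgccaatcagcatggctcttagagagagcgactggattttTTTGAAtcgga
Ndc80: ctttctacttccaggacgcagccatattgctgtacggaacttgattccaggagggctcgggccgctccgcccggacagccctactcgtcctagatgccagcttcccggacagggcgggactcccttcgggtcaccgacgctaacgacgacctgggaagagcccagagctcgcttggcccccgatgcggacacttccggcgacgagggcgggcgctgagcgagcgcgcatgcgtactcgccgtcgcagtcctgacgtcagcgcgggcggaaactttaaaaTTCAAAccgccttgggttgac
Of the 18 risen mitotic genes 17 had a window, and 11 of these held the motif. Among all tested genes with a window 12.3% held it, against 66.0% of the mitotic list whatever its members did, 17.6% of all risen genes and 9.82% of all fallen genes. The E2F motif was in 8.51% of the mitotic windows. The FOXO letters GTAAACA, searched on both strands, were in 12.9% of the windows of the FOXO and PI3K list and in 2.59% of all windows, and among its 6 risen members with a window Txnip alone held them.

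Ribosome biogenesis genes gave falls and no rise. Of 42 listed, 41 were tested, 10 fell (24.4%, against 5.79% over all genes) and none rose. Of those tested, 31 had a log2 change below 0, and the median was -0.23. Gar1, of the H/ACA particles that guide pseudouridylation of ribosomal RNA, had 59.1, 52.1 and 39.3 CPM in NRG1 against 123, 103 and 96.3 CPM in PBS libraries. Its groups did not overlap (log2 change -1.10, SE 0.152, adjusted p = 0.00094). Nop10, of the same particles, fell by 0.68 (adjusted p = 0.00693), and Rrs1, of large subunit assembly, by 0.82 (adjusted p = 0.00456). Rrp1, a nucleolar protein of the large subunit, fell by 0.91 (adjusted p = 0.0125) and lost the call without PBS replicate 2 or PBS replicate 3 (0.052 at most). Bop1 fell by 0.71 (adjusted p = 0.0347), with Mroh1 exons on the opposite strand, and lost the call without any library but NRG1 replicate 1 (0.149 at most). Falls numbered 5 without NRG1 replicate 2, NRG1 replicate 3 or PBS replicate 1, 4 in the 15-week-old mice, and 3 without PBS replicate 2 or PBS replicate 3, and 1 rise was called without PBS replicate 1 and with the replicate block. Myc, a known driver of this program, averaged 131 ± 23.7 CPM in NRG1 and 193 ± 50.2 CPM in PBS libraries and was not called (log2 change -0.56, adjusted p = 0.103). The Myc fall was called with DESeq2 (0.0346) and without PBS replicate 2 (0.0281), but not with the replicate block (0.0535). Over all 16 alternatives its adjusted p ran from 0.000866 to 0.457.

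Trmt61a (chromosome 12, 111678105 to 111683902), which encodes the catalytic subunit of a tRNA adenosine methyltransferase, had the smallest adjusted p among the genes named. It had 21.5, 18.1 and 15.8 CPM in NRG1 libraries against 89.6, 81.5 and 72.3 CPM in PBS libraries. The 3 NRG1 values lay far below the 3 PBS values, a 4.40-fold fall (log2 change -2.14, SE 0.144, adjusted p = 5.94e-06).

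Markers of the crypt base columnar stem cell leaned higher after NRG1, and how many were called turned on PBS replicate 1. Of 36 listed, 34 were tested, 4 rose (11.8%, against 3.76% over all genes) and none fell. Of those tested, 29 had a log2 change above 0, and the median was 0.45. The list's summed level was 9026, 9228 and 7111 CPM in the NRG1 libraries, against 7995, 4861 and 4624 CPM in the PBS libraries, so that PBS replicate 1 lay above the lowest NRG1 library. Lgr5 had 94.6, 51.3 and 54.8 CPM in NRG1 and 62.9, 19.1 and 23.1 CPM in PBS libraries. Its groups overlapped and it was not called (log2 change 0.93, SE 0.577, adjusted p = 0.398), but with the replicate block its adjusted p was 2.05e-05 and without PBS replicate 1 it was 0.00983. Since the EGFP gate is driven from the Lgr5 locus, the level of Lgr5 is also tied to how the gate was set. Olfm4, a secreted stem cell marker, had 1701, 1819.7 and 1383 CPM in NRG1 against 1397, 653 and 675 CPM in PBS libraries (log2 change 0.85, adjusted p = 0.1, and 0.00184 with the replicate block). Ascl2, a transcription factor of stem cell fate, was at 35.8 ± 4.66 CPM in NRG1 and 27.8 ± 11.1 CPM in PBS libraries (log2 change 0.37, adjusted p = 0.412, and 0.0248 without PBS replicate 1). The called genes were Nrn1, encoding neuritin (1.04, adjusted p = 0.0122), Rgmb, a BMP co-receptor (0.82, adjusted p = 0.042), Tgif1, a homeobox repressor (0.78, adjusted p = 0.00422), and Aqp4, a water channel (0.75, adjusted p = 0.0117). Tgif1 kept its call without each single library, while those of Nrn1, Rgmb and Aqp4 ended without PBS replicate 2 or PBS replicate 3, that of Rgmb also without NRG1 replicate 1 or 3 and that of Aqp4 also without NRG1 replicate 2 (0.173 at most). Rises numbered 16 without PBS replicate 1, 1 without PBS replicate 2, 1 without PBS replicate 3, 17 with the replicate block, 2 in the 15-week-old mice, 8 with DESeq2 and 12 without the filter on low counts. Of 19 tested Wnt targets 1 rose (Cd44, a hyaluronan receptor, 0.71, adjusted p = 0.0496) and 1 fell (Ccnd1), with a median of -0.017. Each was 5.26% of those tested, against 3.76% risen and 5.79% fallen over all genes. The Cd44 call was kept only without PBS replicate 1 among the single-library omissions (0.207 at most otherwise), where 3 Wnt targets rose. Without PBS replicate 2, 2 Wnt targets fell, with the replicate block 2 rose, and in the model of all 24 libraries none was called (Cd44 0.0699).

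**Figure D5:**
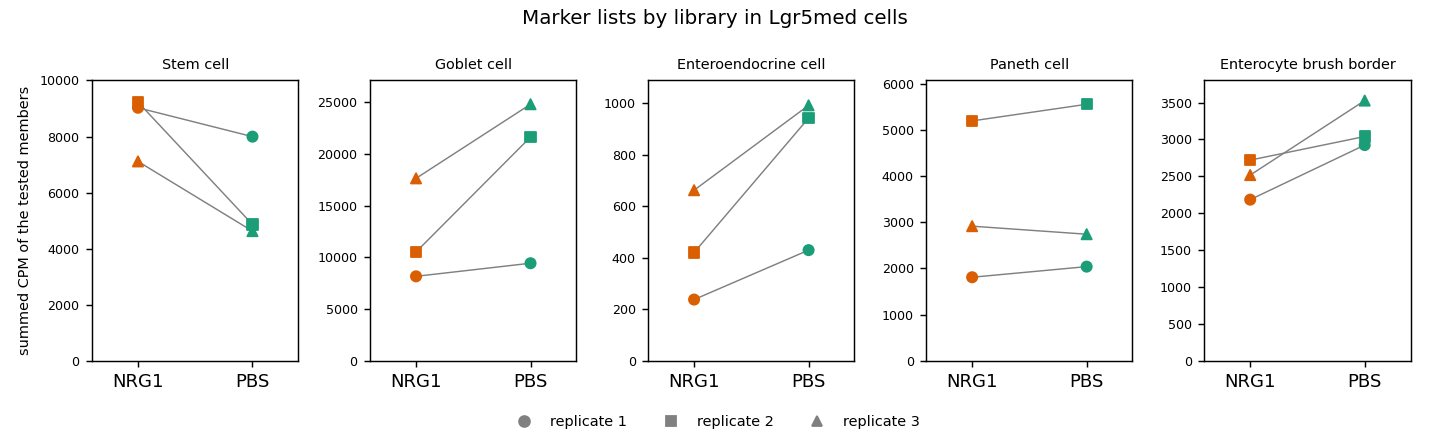
Summed CPM (y axis, from 0) of the tested members of 5 cell type marker lists in each NRG1 and PBS library (x axis), with marker shapes for replicates 1 to 3 and grey lines joining libraries of the same number. Goblet and enteroendocrine sums range widely between replicates and are lower in NRG1 for each number, and the enterocyte sums do not overlap (2184 to 2720 CPM in NRG1 against 2924 to 3527 CPM in PBS).

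Among enterocyte genes falls and no rise were called. Of 30 listed enterocyte genes, of the brush border, digestion and other roles, 29 were tested. Of these, 8 fell (27.6%, against 5.79% over all genes), none rose, 27 had a log2 change below 0 and the median was -0.39. Car4 (chromosome 11, 84957786 to 84966044), a membrane carbonic anhydrase of the brush border, had 4.85, 3.60 and 2.56 CPM in NRG1 libraries against 16.0, 21.0 and 23.4 CPM in PBS libraries. The highest NRG1 value lay below the lowest PBS value by a wide margin, and the 5.48-fold fall was the largest among the genes named (log2 change -2.45, SE 0.237, adjusted p = 7.05e-05). Arg2, the mitochondrial arginase, had 19.2, 19.3 and 20.9 CPM in NRG1 against 27.9, 38.9 and 44.9 CPM in PBS libraries (log2 change -0.91, adjusted p = 0.00476; Vti1b exons overlap on the opposite strand). Alpi, the brush border alkaline phosphatase, had 22.9, 36.8 and 36.5 CPM in NRG1 and 63.1, 61.8 and 100.5 CPM in PBS libraries (log2 change -1.23, adjusted p = 0.0171, and 0.0824 without NRG1 replicate 3). The peptidase genes Enpep (1.99-fold lower, adjusted p = 0.0311) and Dpep1 (1.99-fold lower, adjusted p = 0.0187), the microvillus gene Vil1 (-0.52), the transcription factor gene Maf (-0.90) and the scaffold gene Slc9a3r1 (-0.46) completed the falls. The calls of Enpep and Dpep1 both ended without NRG1 replicate 2 or PBS replicate 3, that of Enpep also without NRG1 replicate 3 or PBS replicate 2 (0.093 at most). The list held 14 falls with the replicate block, 5 without NRG1 replicate 1, NRG1 replicate 3 or PBS replicate 2, 4 without NRG1 replicate 2 and 3 without PBS replicate 3. It held 4 falls in the 15-week-old mice and 2 in the model of all 24 libraries, where Alpi (0.133), Enpep (0.12) and Dpep1 (0.31) were not called.

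Transporters of the villus gave 9 falls (31.0%, against 5.79% over all genes), no rise and a median of -0.50 among 29 tested of 30. Slc7a8, a neutral amino acid exchanger, had 57.1, 42.9 and 45.8 CPM in NRG1 against 91.2, 81.9 and 104 CPM in PBS libraries, with no overlap (log2 change -0.92, SE 0.138, adjusted p = 0.00153). Slc51a, of the basolateral bile acid exporter, had 4.23, 5.93 and 7.91 CPM in NRG1 against 11.5, 14.9 and 17.4 CPM in PBS libraries (log2 change -1.28, adjusted p = 0.00531; Pcyt1a exons overlap on the opposite strand). The purine nucleoside transporter gene Slc28a2 fell by 1.22 (adjusted p = 0.00465). Falls also covered the glucose transporter gene Slc2a2 (-1.32), the sulfate transporter gene Slc13a1 (-0.92), the amino acid transporter genes Slc7a9 (-0.82), Slc6a20a (-0.78) and Slc1a1 (-0.55), and the iron transporter gene Slc11a2 (-0.56). Slc5a1, the sodium-coupled glucose transporter, was not called, at 91.9 ± 15.1 CPM in NRG1 and 112 ± 13.5 CPM in PBS libraries (log2 change -0.29, adjusted p = 0.21). Falls numbered 3 without NRG1 replicate 2, PBS replicate 2 or PBS replicate 3, 4 in the 15-week-old mice and 4 in the model of all 24 libraries, where Slc28a2 (0.138) and Slc13a1 (0.0509) were not called, and 1 rise was called without NRG1 replicate 1. Among the transporters named, the calls of Slc13a1 and Slc7a9 ended without NRG1 replicate 1 or 2 or PBS replicate 2 or 3, and that of Slc7a9 also without NRG1 replicate 3 (0.174 at most).

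Of 28 listed genes of lipid absorption and chylomicron assembly 27 were tested, with a median of -0.48. They had 10 falls (37.0%, against 5.79% over all genes) and 1 rise (3.70%, close to the 3.76% over all genes). Fabp1 (chromosome 6, 71199827 to 71205023), a fatty acid binding protein, had 49.9, 62.9 and 52.3 CPM in NRG1 libraries against 133, 152 and 200.4 CPM in PBS libraries. The groups were far apart, and the log2 change was -1.55 (SE 0.156, adjusted p = 8.93e-05). Fabp2, the intestinal form, had 280.0, 476 and 609 CPM in NRG1 against 974, 849 and 981 CPM in PBS libraries, without overlap (log2 change -1.04, SE 0.237, adjusted p = 0.0225). Its call ended without NRG1 replicate 2 or any PBS library (0.0787 at most). Apoc2, the cofactor of lipoprotein lipase, fell by 1.10 (adjusted p = 0.00476), and Mttp, which loads lipid onto apolipoprotein B, by 0.70 (adjusted p = 0.00796). Mogat2, which rebuilds diacylglycerol from monoacylglycerol, fell by 1.18 (adjusted p = 0.0121), and Creb3l3, a transcription factor of lipid genes, by 0.95 (adjusted p = 0.00987), and both calls ended without PBS replicate 3 (0.0597 and 0.0697). Abcg8, of the sterol exporter, rose by 0.47 (adjusted p = 0.0398). Falls numbered 5 without NRG1 replicate 2, 6 without PBS replicate 2 and 2 without PBS replicate 3, and 1 rise was called without NRG1 replicate 3 but none without any other single library. The list held 5 falls in the 15-week-old mice, and 1 fall and no rise in the model of all 24 libraries, where Fabp1 (0.0827), Fabp2 (0.155), Apoc2 (0.349), Mogat2 (0.114) and Creb3l3 (0.114) were not called.

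Fatty acid oxidation and PPAR target genes gave 7 falls (18.4%, against 5.79% over all genes) and no rise. Of 39 listed 38 were tested (median -0.21). Pex11a, a peroxisome division gene and PPAR target, had 13.8, 10.4 and 8.31 CPM in NRG1 against 33.6, 25.8 and 32.8 CPM in PBS libraries. No values overlapped, and the fall was 2.83-fold (log2 change -1.50, SE 0.19, adjusted p = 0.00049). Ppargc1b, a coactivator of mitochondrial genes, averaged 16.7 ± 0.684 CPM in NRG1 and 28.6 ± 1.79 CPM in PBS libraries and fell by 0.77 (adjusted p = 0.00422). Hadh, of mitochondrial beta-oxidation, fell by 0.70 (adjusted p = 0.0062). Ppara, the receptor itself, fell by 0.63 (adjusted p = 0.0408) and Acot2, a mitochondrial thioesterase, by 0.58 (adjusted p = 0.0379). Both lost the call without NRG1 replicate 2 or 3 or PBS replicate 3, Ppara also without PBS replicate 2 and Acot2 also without NRG1 replicate 1 or PBS replicate 1 (0.224 at most). Falls numbered 3 without NRG1 replicate 2, 4 without NRG1 replicate 3, 4 without PBS replicate 2, 3 without PBS replicate 3 and 4 in the 15-week-old mice. In the model of all 24 libraries Ppara (0.0647) and Acot2 (0.0595) were not called.

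Of 35 listed glycolysis and hypoxia genes 32 were tested (median -0.14). They gave 5 falls (15.6%, against 5.79% over all genes) and 1 rise (3.1%, against 3.76%). Ldha, which makes lactate from pyruvate, had 329, 376 and 296 CPM in NRG1 against 570.0, 629 and 606 CPM in PBS libraries, without overlap (log2 change -0.85, SE 0.137, adjusted p = 0.00237). Pfkp, a phosphofructokinase, fell by 0.87 (adjusted p = 0.00476; Pitrm1 exons overlap on the opposite strand). Hk2, a hexokinase, fell by 0.72 (adjusted p = 0.00805, and 0.054 without PBS replicate 2 and 0.0685 in the model of all 24 libraries), and Pkm, a pyruvate kinase, by 0.56 (adjusted p = 0.00744, and 0.0538 without PBS replicate 3). Bnip3l, a mitophagy receptor induced by hypoxia, rose by 0.63 (adjusted p = 0.00849, and 0.0597 at most without NRG1 replicate 2 or PBS replicate 3). With the replicate block 9 fell and 2 rose, falls numbered 3 without PBS replicate 2 or PBS replicate 3, falls 2 and rises 2 in the 15-week-old mice, and rises 2 without NRG1 replicate 3 and 0 without NRG1 replicate 2 or PBS replicate 3. Nuclear-encoded respiratory chain genes gave 5 falls (12.5%, against 5.79% over all genes) and 1 rise (2.5%, against 3.76%) among 40 tested (median -0.22). There were 9 falls under the replicate block, 3 in the model of all 24 libraries and 0 in the 15-week-old mice. Falls numbered 10 without NRG1 replicate 1, 1 without NRG1 replicate 2, 3 without NRG1 replicate 3, 3 without PBS replicate 1 and 0 without PBS replicate 2 or PBS replicate 3. The rise was Cox8a, of complex IV (0.69, adjusted p = 0.00403), which was called without each library in turn, while the falls of Ndufb10 (-0.86), Ndufa4 (-0.64) and Sdhd (-0.60) were not called without PBS replicate 2 or PBS replicate 3, nor Ndufb10 and Ndufa4 without NRG1 replicate 2 (0.0934 at most).

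Some RNAs encoded by the mitochondrial genome rose. Of 13 protein genes 8 were tested, 3 rose (37.5%, against 3.76% over all genes) and none fell, with a median of 0.46. mt-Co1, of complex IV, had 12611, 12538 and 15246 CPM in NRG1 against 5648, 4604 and 5099 CPM in PBS libraries, a clear separation (log2 change 1.40, SE 0.181, adjusted p = 0.000597). mt-Cytb, of complex III, had 5103, 5207 and 4882 CPM in NRG1 and 2741, 2114 and 2527 CPM in PBS libraries (log2 change 1.04, adjusted p = 0.00236). mt-Nd6 rose by 0.78 (adjusted p = 0.0217, with mt-Nd5 on the opposite strand) but was not called without NRG1 replicate 2 or 3 or PBS replicate 2 or 3 (0.106 at most) or in the model of all 24 libraries (0.055). mt-Nd1, of complex I, did not follow, at 2581 ± 171 CPM in NRG1 and 2595 ± 411 CPM in PBS libraries (log2 change -0.0077, adjusted p = 0.984). mt-Nd4l, mt-Co2, mt-Co3 and mt-Atp8 are listed at 0 in all 6 libraries, so the set is not complete. Beside these values, the ribosomal RNAs of the same genome shifted, with 51.3, 38.0 and 44.3 counts of mt-Rnr1 for every 100 of mt-Rnr2 in NRG1 libraries against 18.5, 20.5 and 20.1 in PBS libraries. Whether that shift has a part in the rise of these messenger RNAs was not tested.

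Secretory lineage markers varied widely between mice of 1 treatment. Goblet markers summed to 8163, 10520 and 17640 CPM in NRG1 against 9431, 21640 and 24810 CPM in PBS libraries, which overlap widely. Of 26 tested, 1 fell (3.85%, against 5.79% over all genes), none rose and the median was -0.44. The gene that fell, Guca2b, encodes uroguanylin and is made by other epithelial cells as well, and it had 36.2, 55.9 and 61.6 CPM in NRG1 and 97.3, 135 and 108 CPM in PBS libraries (log2 change -1.14, SE 0.192, adjusted p = 0.00563). Falls numbered 7 without PBS replicate 1, 11 with the replicate block and 0 in the model of all 24 libraries (Guca2b 0.104). Enteroendocrine markers summed to 237.5, 420.0 and 662.0 CPM in NRG1 against 429.4, 942.2 and 991.6 CPM in PBS libraries, and 1 of 30 tested fell (median -0.51). This was Ghrl, encoding ghrelin, with 1.01, 2.01 and 1.76 CPM in NRG1 and 2.43, 9.17 and 8.51 CPM in PBS libraries (log2 change -2.06, SE 0.476, adjusted p = 0.0248, and 0.000794 to 0.108 without single libraries, kept only without PBS replicate 1). Under the replicate block 8 enteroendocrine markers fell and 1 rose, 4 fell without NRG1 replicate 3, none fell without PBS replicate 2, and 1 rose without NRG1 replicate 1. Paneth markers summed to 1808, 5194 and 2914 CPM in NRG1 and 2038, 5554 and 2740 CPM in PBS libraries, and none of 22 tested was called (median 0.32), although 6 rose and 2 fell with the replicate block, 2 rose without NRG1 replicate 1 and 1 rose without PBS replicate 2. None of 14 tuft cell markers was called (median 0.15). The Notch pathway, which divides the absorptive from the secretory fate, had 1 called gene of 26 tested (median -0.11), the coactivator gene Maml2. It lay near the filter on low counts and passed it mainly through its PBS libraries, so its values are a description, at 0.338, 0.456 and 0.626 CPM in NRG1 and 1.65, 2.92 and 1.02 CPM in PBS libraries (log2 change -1.97, adjusted p = 0.0283). The call ended without NRG1 replicate 1, NRG1 replicate 2 or PBS replicate 2 (0.176 at most) and in the model of all 24 libraries (0.0856), and 1 Notch gene rose and 3 fell both with the replicate block and without PBS replicate 1, while none was called without NRG1 replicate 2 or PBS replicate 2.

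Among class I antigen presentation genes falls and no rise were called. Of 24 listed, 21 were tested, 7 fell (33.3%, against 5.79% over all genes), none rose and the median was -0.46. Psmb9, a catalytic subunit of the immunoproteasome, had 28.3, 22.5 and 19.0 CPM in NRG1 against 48.5, 48.8 and 35.9 CPM in PBS libraries, with no overlap (log2 change -0.93, SE 0.168, adjusted p = 0.00465; Tap1 exons overlap on the opposite strand). H2-T3, which encodes the thymus leukaemia antigen of the intestinal epithelium, had 20.5, 17.3 and 11.5 CPM in NRG1 against 32.5, 30.1 and 28.7 CPM in PBS libraries (log2 change -0.89, adjusted p = 0.00994). The classical genes H2-D1 (-0.53, adjusted p = 0.0111) and H2-K1 (-0.46, adjusted p = 0.0351) fell too, as did H2-Q1 (-1.51), H2-M3 (-1.40) and the immunoproteasome gene Psmb8 (-1.04). H2 genes share sequence, so how the counting divided reads among them is uncertain. The calls of H2-Q1 (without PBS replicate 3), H2-M3 (without NRG1 replicate 2 or PBS replicate 2 or 3) and Psmb8 (without NRG1 replicate 2 or 3 or PBS replicate 2) ended, with adjusted p of 0.127 at most. The list held 4 falls without NRG1 replicate 2, 3 without PBS replicate 2 or PBS replicate 3, 2 in the 15-week-old mice and 4 in the model of all 24 libraries, where H2-Q1 (0.12) and Psmb8 (0.107) were not called. Class II genes had a median of -1.27 but none of 8 tested was called. Cd74, the invariant chain, had 19.4, 10.1 and 3.59 CPM in NRG1 and 38.5, 49.6 and 10.6 CPM in PBS libraries, which overlap (adjusted p = 0.341), and 4 class II genes fell with the replicate block and 1 without NRG1 replicate 1 or PBS replicate 3. Stat3 was the 1 called gene of 28 tested interferon response genes (-0.76, adjusted p = 0.00863; Stat5a exons overlap on the opposite strand), against 3 falls with the replicate block and 1 rise and 2 falls without PBS replicate 1.

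Smaller groups complete the account. Among 34 tested unfolded protein response and ATF4 genes 2 fell (median -0.12), which is 5.88% and close to the 5.79% over all genes. Hspa5, the chaperone BiP, had 277, 342 and 329.6 CPM in NRG1 against 382, 691 and 895 CPM in PBS libraries (log2 change -1.05, adjusted p = 0.0484), and Sdf2l1, its endoplasmic reticulum partner, fell by 1.13 (adjusted p = 0.0227). The call of Hspa5 was kept only without PBS replicate 1 and that of Sdf2l1 only without PBS replicate 1 or NRG1 replicate 3 (0.206 at most otherwise), and 6 members fell without PBS replicate 1, 4 with the replicate block, 1 without NRG1 replicate 3 and 0 without each other library. Of 27 tested p53 targets 3 rose (11.1%, against 3.76% over all genes) and 1 fell (3.70%, against 5.79%), with a median of 0.16. Besides Trp53inp1 these were Btg2, an antiproliferative gene (0.75, adjusted p = 0.00357), Eda2r (0.94, adjusted p = 0.0362, above 0.05 without any 1 library) and Perp, of desmosomes, which fell by 0.62 (adjusted p = 0.00456). With the replicate block 4 rose and 2 fell, and in the model of all 24 libraries 1 rose, without Btg2 (0.051) or Eda2r (0.0592). Immediate-early and dissociation genes gave 2 rises (6.67%) and 1 fall (3.33%) among 30 tested (median 0.025), with 7 falls under the replicate block. Over all genes 3.76% rose and 5.79% fell. Falls numbered 3 without NRG1 replicate 1, 0 without NRG1 replicate 2, 2 without NRG1 replicate 3, 4 without PBS replicate 1 and 0 without PBS replicate 3, and 1 rise was left without PBS replicate 2 or 3. Cholesterol and fatty acid synthesis genes gave 2 falls among 32 tested (6.25%, close to that over all genes; median -0.065), the elongase gene Elovl6 (-0.58) and the fatty acid synthase gene Fasn (-0.42), and 5 falls and 3 rises with the replicate block. Elovl6 lost the call without PBS replicate 2 and Fasn without NRG1 replicate 1 or 2 or PBS replicate 2 or 3 (0.124 at most), neither was called in the model of all 24 libraries (0.0651 and 0.0954), and 1 gene rose without NRG1 replicate 3, PBS replicate 1 or PBS replicate 2. Of 16 tested YAP and regenerative genes none was called (median 0.30), 2 rose with the replicate block, and 1 rose and 1 fell without PBS replicate 1. Of 17 antimicrobial genes Reg3a fell (-1.01, adjusted p = 0.045, above 0.05 without any 1 library; median -0.38). With the replicate block 3 of these fell and 1 rose, 2 fell without NRG1 replicate 2, 1 rose without NRG1 replicate 3 and none was called in the model of all 24 libraries (Reg3a 0.133). Of the 3 tested immune markers Itgam fell (-0.83, adjusted p = 0.0124, and 0.0726 without PBS replicate 2) and with the replicate block 1 immune marker rose, while Ptprc had 0.138, 0.149 and 0.508 CPM in NRG1 and 0.137, 0.326 and 0.188 CPM in PBS libraries on the scale of all 24 libraries. No endothelial, mesenchymal, erythroid or neural marker was called. Of 6 tested carbonic anhydrases Car4 alone was called (median -0.094). Among the genes of the sort, the keratin gene Krt8 fell by 1.02 (adjusted p = 0.0113) and Krt19 by 0.52 (adjusted p = 0.0425), calls that both ended without NRG1 replicate 2, PBS replicate 2 or PBS replicate 3, and that of Krt19 also without NRG1 replicate 1 or 3 (0.217 at most).

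The remaining genes with the largest changes belong to no single group. H3f3a, which encodes the replication-independent histone H3.3, had 32.1, 46.0 and 56.1 CPM in NRG1 libraries against 15.3, 14.4 and 16.7 CPM in PBS libraries. The rise was 2.89-fold (log2 change 1.53, SE 0.184, adjusted p = 0.000409) and without overlap, but exons of H3f3aos lie on the opposite strand and processed copies of this gene exist, so its reads are uncertain. Arl14, an ARF-like GTPase gene, had 7.95, 11.9 and 11.8 CPM in NRG1 against 4.47, 3.22 and 4.14 CPM in PBS libraries (log2 change 1.42, adjusted p = 0.0029). Rises were also called for the monocarboxylate transporter family gene Slc16a12 (1.43, adjusted p = 0.0128), the peptide transporter gene Slc15a2 (1.38, adjusted p = 0.0466), the oestrogen-binding receptor gene Gper1 (1.34, adjusted p = 0.0146), the deposited symbol Clca2 (1.27, adjusted p = 0.00125), Wbscr27 (1.21, adjusted p = 0.0197), Ccdc141 (1.18, adjusted p = 0.0416) and the clone-based symbol RP23-414A20.3 (1.17, adjusted p = 0.0229). Clca symbols were renamed between annotations, so Clca2 cannot be tied to 1 gene. The rises of Slc15a2, Gper1, Wbscr27, Ccdc141 and RP23-414A20.3 each lost the call without NRG1 replicate 2, without PBS replicate 3 and without 2 or 3 other libraries, and that of Slc16a12 without PBS replicate 3 (adjusted p = 0.219 at most). In the model of all 24 libraries Slc15a2 (0.145) and Ccdc141 (0.0753) were not called.

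Among the remaining falls, Aldh1a1, a retinaldehyde dehydrogenase, had 15.8, 19.3 and 15.3 CPM in NRG1 against 49.0, 45.2 and 64.9 CPM in PBS libraries. The groups were far apart (log2 change -1.66, SE 0.161, adjusted p = 7.05e-05). Igsf9, an immunoglobulin superfamily gene, had 7.27, 5.47 and 6.77 CPM in NRG1 against 23.2, 17.5 and 25.5 CPM in PBS libraries (log2 change -1.76, SE 0.193, adjusted p = 0.000148). Apol10a, an apolipoprotein L gene, fell by 1.78 (adjusted p = 0.000597), Gsta1, a glutathione S-transferase with near-identical relatives, by 1.73 (adjusted p = 0.00422), and Ces1f, a carboxylesterase, fell by 1.71 (adjusted p = 0.00141). All 5 falls were called without each library in turn, and all but that of Ces1f (0.0702) in the model of all 24 libraries.

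Whether Lgr5med cells responded differently from the other sorted populations was tested as a difference of responses over all 24 libraries, on 15045 genes. Against Lgr5high cells no gene was called by edgeR (576 at an unadjusted p under 0.05, and 0 by DESeq2), and against Lgr5low cells none either (319 unadjusted, and 0 by DESeq2). A count of 0 does not show that the responses were alike. Against Lgr5neg cells 7 genes were called, 0.0465% of those tested. In that model the E2f1 change was -2.02 ± 0.26 in Lgr5med cells, against -1.83 ± 0.26 in Lgr5high, -1.10 ± 0.27 in Lgr5low and 0.45 ± 0.52 in Lgr5neg cells (log2 change ± SE). E2f1 was low in Lgr5neg libraries, at 0.606 ± 0.170 CPM in NRG1 and 0.440 ± 0.295 CPM in PBS. The Cenpa value was 0.90 ± 0.16 in Lgr5med, against 1.23 ± 0.16, 0.50 ± 0.16 and 0.95 ± 0.22 in Lgr5high, Lgr5low and Lgr5neg cells. That of Erbb3 was 0.63 ± 0.13, against 0.50 ± 0.13, 0.53 ± 0.13 and 0.63 ± 0.13 in the same order. Trp53inp1 changed by 1.68 ± 0.27 in Lgr5med against 0.79 ± 0.26 in Lgr5high, 0.96 ± 0.27 in Lgr5low and 0.99 ± 0.29 in Lgr5neg cells. The differences for these genes were not called.

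The 7 genes whose response differed from that of Lgr5neg cells included cell cycle genes with low levels there. Rrm2 had 24.9, 30.0 and 27.1 CPM in NRG1 against 38.2, 42.1 and 43.4 CPM in PBS libraries of Lgr5med cells, on the scale of all 24 libraries, and 2.22, 3.16 and 3.25 CPM in NRG1 against 1.27, 1.69 and 1.81 CPM in PBS libraries of Lgr5neg cells. It thus lay lower with NRG1 in one population and higher in the other (log2 difference of responses -1.46, adjusted p = 0.0137). Clic4, a chloride intracellular channel gene, had 46.2, 45.9 and 47.8 CPM in NRG1 and 38.5, 36.03 and 33.3 CPM in PBS libraries of Lgr5med cells, against 3.94, 4.47 and 5.37 CPM in NRG1 and 9.59, 10.9 and 10.1 CPM in PBS libraries of Lgr5neg cells (1.52, adjusted p = 2.12e-04). Axin2, which Wnt signalling induces and which in turn dampens it, overlapped between treatments in Lgr5med cells, at 172, 147 and 114 CPM in NRG1 and 159, 98.2 and 110 CPM in PBS libraries. In Lgr5neg cells it had 14.7, 15.3 and 18.1 CPM in NRG1 and 46.5, 40.8 and 40.2 CPM in PBS libraries (1.65, adjusted p = 0.00165).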

How the data were processed

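Sorted cells of 24 libraries (4 populations of 6 mice) were sequenced as single-end reads of 76 nt after NuGEN Ovation amplification of 15 ng RNA, per the labels' protocols. The deposited table holds raw counts per gene symbol made by the authors. STAR, featureCounts and GRCm38 are named in the submitters' processing notes, while versions, multi-mapping and strand settings are not given in the sources used here. Reads of near-identical or overlapping genes may therefore be divided unequally. Amplification without molecular identifiers means that counts are not independent molecules, so the floor covers counting error only.

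Genes were filtered with filterByExpr (minimum count 10), scaled by TMM and tested with the edgeR quasi-likelihood test (R 4.3.3, edgeR 4.0.16) on the 6 Lgr5med libraries, with treatment as the single term and Benjamini-Hochberg adjustment over all 13394 genes tested. Calls were made at an adjusted p of 0.05. Log2 changes are NRG1 minus PBS, and levels are means ± SD. Differences of responses used 1 model of all 24 libraries, with a mean per group and no term for the mouse. Each mouse gave 1 library per population, so libraries of 1 mouse were treated as independent there. The fit with the mouse as a term was an alternative. Alternatives used edgeR with other scaling, filters and terms, DESeq2 1.42.0 and limma-voom (limma 3.58.1). The code was checked on simulated counts. Promoters, coordinates and overlaps were handled in Python 3.11.15 with pandas 2.3.3.

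Replicate numbers of NRG1 and PBS come from the labels. Deviations from the group means correlated at 0.355, 0.12 and 0.288 between same-numbered libraries over 9656 genes, and at -0.321 to 0.118 between the others. The main test did not pair the libraries, and among the fits within Lgr5med cells the numbers served as pairs in the replicate block alone. The labels state no blocking, and replicates 2 hardly stood out. The replicate block is given beside the counts that it moves by more than 1.5 times. Replicate 3 was also the younger mouse of each treatment, so number and age cannot be told apart for it.

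Symbols were matched to GENCODE vM21 (GRCm38), 39469 directly and 953 through older symbols, and 2858 of 43280 had no match. Coordinates are from that annotation. The members and gene lists were chosen with earlier results of these data known. Named were the 12 largest rises and 12 largest falls whose mean log2 CPM reached 2 and whose groups did not overlap, up to 5 called genes per list, a few fixed genes given whatever they did (Erbb2, Erbb3, Erbb4, Egfr, Lgr5, Olfm4, Ascl2, Mki67, Ung, E2f1, Myc and Ccnd1), and up to 5 genes per direction for differences of responses. Other called genes named within a list were picked after their values were seen, and for these the calls without single libraries were followed only as counts per list.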

Additional observations from a re-analysis of the deposited data

Results flagged for a closer look

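The following 7 genes were set apart because their response to NRG1 in Lgr5med cells differed from that in Lgr5neg cells by the edgeR test of the difference itself, over 15045 genes and all 24 libraries. Values are differences of log2 changes, Lgr5med minus Lgr5neg, with CPM scaled over all 24 libraries. Clic4 differed by 1.52 (adjusted p = 2.12e-04), a call kept in all 11 alternatives tried. Axin2 differed by 1.65 (adjusted p = 0.00165), a call kept in 10 of 11. Pms1, a mismatch repair gene, differed by 2.10 (adjusted p = 0.0322), with 0.575, 0.987 and 0.227 CPM in NRG1 and 1.57, 2.33 and 1.81 CPM in PBS libraries of Lgr5neg cells. These Lgr5neg levels of Pms1 are low. In Lgr5med cells it had 182, 262 and 208 raw counts in NRG1 and 154, 155 and 144 in PBS libraries.

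Fam101b, now named Rflnb and encoding a filamin-binding protein, differed by -1.37 (adjusted p = 0.0112). It had 20.7, 22.6 and 22.5 CPM in NRG1 and 52.9, 38.5 and 48.0 CPM in PBS libraries of Lgr5med cells, against 42.1, 62.5 and 52.4 CPM in NRG1 and 47.0, 36.5 and 45.3 CPM in PBS libraries of Lgr5neg cells. Its groups were separate in Lgr5med cells and overlapped in Lgr5neg cells. Rrm2 differed by -1.46 (adjusted p = 0.0137).

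Tube1, encoding epsilon tubulin, differed by -4.16 (adjusted p = 0.0229), and Tcf19, a cell cycle-regulated gene, by -3.10 (adjusted p = 0.0322). Both differences rest on low counts in Lgr5neg cells. Tube1 had 0.986, 1.78 and 0.453 CPM in NRG1 and 0, 0.0805 and 0.0823 CPM in PBS libraries there, and Tcf19 had 0.821, 0.460 and 0.378 CPM in NRG1 and 0.0749, 0.0805 and 0.247 CPM in PBS libraries. In Lgr5med cells Tube1 overlapped, at 5.97, 6.38 and 5.87 CPM in NRG1 and 5.96, 4.69 and 6.96 CPM in PBS libraries, while Tcf19 had 6.52, 7.61 and 5.68 CPM in NRG1 and 15.1, 13.1 and 14.6 CPM in PBS libraries. The calls of Tube1, Rrm2 and Pms1 were kept in 5 of 11 alternatives, that of Fam101b in 7 and that of Tcf19 in 4.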

How the results depend on the processing

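Of 13394 genes tested 1279 were called, against 2333 (997 risen, 1336 fallen) with the replicate block, which pairs same-numbered libraries. The 15-week-old mice alone gave 425 (127 risen, 298 fallen), and all 24 libraries in 1 model gave 888 (298 risen, 590 fallen), with 835 of the 1279 called again. Leaving out 1 library at a time gave 422 to 1118 calls (119 to 414 risen, 303 to 711 fallen), the lowest without PBS replicate 3, and 413 to 906 of the 1279 were called again. The totals of the other alternatives, which kept the 6 libraries, stayed within 1.5 times, from 1284 with DESeq2 size factors to 1758 without the filter on low counts, and no called gene changed direction in any of them. Of the named genes, 54 of 107 called ones were called without each library in turn and 53 were lost at least once, and 32 were not called in the model of all 24 libraries. Falls of the replication list numbered 15 with DESeq2, 17 with age as a term and 18 without the filter.

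For differences of responses, the count against Lgr5high cells was 17 without the filter on low counts and 1 with the 12 libraries of both populations, against Lgr5low cells 5 without that filter, and against Lgr5neg cells 134 without it, 31 with DESeq2, 13 with mice as a replicate block and 1 to 4 with a mouse left out. The cause of these shifts was not tested. All 1279 genes were called with the replicate block too, and of the 7 named genes that were not called Lgr5 and Olfm4 were called with it. Precision is limited by 3 mice per treatment, and genes under about 3 counts in a library cannot be told from 0.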

Other observations

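The following 3 genes with roles in the metabolism of foreign or lipid compounds were in no list and fell. They were chosen after their values were seen, with no count of such genes, and are given as single values. Sult1b1, a cytosolic sulfotransferase, had 18.9, 20.3 and 21.2 CPM in NRG1 against 45.6, 41.3 and 57.2 CPM in PBS libraries (log2 change -1.25, edgeR adjusted p = 0.000249). Cyp4f14, a cytochrome P450 that hydroxylates fatty acids, had 21.0, 33.2 and 32.4 CPM in NRG1 against 74.0, 74.0 and 84.0 CPM in PBS libraries (-1.42, adjusted p = 0.000249). Neither gene overlapped between the groups. Nqo1, a quinone reductase induced by NRF2, had 5.41, 5.01 and 5.58 CPM in NRG1 against 11.3, 15.7 and 12.5 CPM in PBS libraries (-1.30, adjusted p = 0.00169).

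The ribosomal protein symbols Rps25 and Rps27 fell as well, and were likewise picked after their values were seen. Rps25 had 258, 250.3 and 186 CPM in NRG1 against 596, 437 and 458 CPM in PBS libraries (-1.10, adjusted p = 0.00146), and Rps27 had 219, 242 and 241 CPM in NRG1 against 581, 414 and 452 CPM in PBS libraries (-1.04, adjusted p = 0.00102). Many processed copies of such genes exist, so how their reads were assigned is uncertain.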
